A study of Mus musculus with 7 samples.

Results

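Histone transcripts were followed through mouse oocyte maturation, from fully grown oocytes with an intact germinal vesicle (GV) to oocytes arrested at metaphase of the second meiotic division (MII). The members were the entries of the expression tables whose gene symbol begins with Hist1h, Hist2h, Hist3h, Hist4h, H1f, H2a, H2b, H3 or H4. This rule found 120 entries with 104 symbols among the 25912 entries listed, and the symbols fell into 10 linker, 41 variant and 69 clustered entries. RNA was measured by Smart-seq2, which copies transcripts from an oligo-dT primer on the poly(A) tail, in 7 libraries of 10 oocytes each. Oocytes came from 4-week-old C57BL/6 females 44 h after an injection of PMSG, a gonadotropin that stimulates follicle growth. The 2 GV libraries were labelled as control genotype with no treatment, the 3 MII libraries as control with the solvent DMSO, and the other 2 MII libraries as treated with BYBX. BYBX is a ligand that binds and stabilises RNA G-quadruplexes, stacked folds of guanine-rich RNA. The MII stage corresponds to 16 h of culture. BYBX was at 1 μM where these RNA levels were set beside ribosome-bound RNA, and the labels name no dose. Whether oocytes without a polar body were left out is not given in the sources used here. Nothing in the labels says that the libraries of a group came from separate animals or days, so the p-values below measure the spread between these libraries, which may be technical.

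Histones package DNA into nucleosomes. Core histones H2A, H2B, H3 and H4 form the particle, and linker histone H1 binds the DNA where it enters and leaves. Most core histone genes lie in clusters, are copied during S phase, and give mRNAs that end in a conserved stem-loop in place of a poly(A) tail. Variant histones such as H3.3, H2A.X and H2A.Z come from single genes outside the clusters, are made throughout the cell cycle, and mostly carry a poly(A) tail. An oocyte stores histone mRNA and protein for the first divisions of the embryo and has a linker histone of its own, H1f8, also called H1foo.

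The histone stem-loop was looked for because mRNAs that end in it lack the tail to which an oligo-dT primer binds. In the GENCODE annotation of GRCm38 (mm10), the 16-base element was found in the first 100 bases after the stop codon of 51 of 20983 coding genes, which is 0.243%. Among histone genes with an annotated 3′ end it was found in 4 of 9 linker, 2 of 19 variant and 42 of 46 clustered genes. Outside the histone entries it was found in 3 of 20909 genes. A poly(A) signal, AATAAA or ATTAAA on the transcribed strand within the last 50 bases, was found in 5 linker, 18 variant and 14 clustered genes, and in 80.5% of all coding genes. A match is a description of the letters only, and no match says only that these letters were absent from the window. The 48 histone genes with the element had 3 different stems, in 35, 11 and 2 genes. Examples of each are shown, in the strand of the transcript, with the 4-base loop in capitals.
H1f2 (linker, chr13:23739512-23739527, plus strand): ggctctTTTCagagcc
H2bc12 (clustered, chr13:22036300-22036315, plus strand): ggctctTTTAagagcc
H2ax (variant, chr9:44335240-44335255, plus strand): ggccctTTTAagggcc
H4c1 (clustered, chr13:23760800-23760815, minus strand): ggccctTCTCagggcc
H4c2 (clustered, chr13:23757366-23757381, plus strand): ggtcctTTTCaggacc

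Levels are given as FPKM, fragments normalised to transcript length and sequencing depth, which the authors scaled to ERCC spike-in RNA and between batches. The number of reads behind a value is unknown, since the tables hold no counts. Summed over all entries, the libraries held 402114 to 489569 FPKM in GV, 109732 to 127254 in MII with DMSO and 201482 to 246710 in MII with BYBX. As this scale moves nearly all genes together, each change was computed again with every library set to the same total FPKM and with every library's median log2 value set equal. In bulk libraries, a loss of all transcripts and a loss of one are separated only by such a scale. In the same way, loss of an mRNA and shortening of its tail cannot be told apart in oligo-dT libraries. The number of oocytes was set at 10 per library. For any other cell type, fewer cells cannot be told apart from less RNA per cell. All 12 oocyte markers were tested, and their sum was 11392 to 14371 FPKM in GV, 2945 to 3660 in MII with DMSO and 6532 to 7540 in MII with BYBX. The 14 granulosa and cumulus cell markers summed to 6.62 to 13.0, 2.21 to 2.43 and 3.09 to 3.66 FPKM, with Ptx3 at 0, and red blood cell and leukocyte markers to at most 1.20 and 2.27 FPKM, with Ptprc and Cd52 at 0. Their part in the results was not tested.

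Of the 120 histone entries, 43 were listed at 0 in every library, 55 were above 0 but below the level needed for testing, and 22 were tested. Testing required a mean of the 3 group means of at least 1 FPKM. H3c6 was the lowest entry inside this limit at 1.06 FPKM, and H3c15_1, 1 of 2 entries of its symbol, the highest outside at 0.949 FPKM. The tested entries were 4 linker, 7 variant and 11 clustered ones, out of 9202 entries tested in all. Among the clustered ones, H2bc6, H4c1, H4c3, H3c13, H2bc12 and H3c6 averaged below 1 FPKM in both MII groups and passed through GV alone. A fall from GV was therefore largely fixed in advance for them. All 26 H2al entries, a testis family, were listed at 0. Of the 54 entries with a stem-loop 10 were tested, and only H1f2 and H2ax of them reached 10 FPKM in GV. Both also had a poly(A) signal. The 37 entries with a stem-loop and no poly(A) signal did not exceed 2.72 FPKM in the GV mean. Their median was 0.122 FPKM, and 3 were at 0 in every library. Of the 26 entries with a poly(A) signal and no stem-loop, 6 reached 10 FPKM in GV, among them H1f8 at 2784 FPKM. The median of these entries was 0, and 15 were at 0 in every library. Neither element was found for H2bc4, at 14.8 FPKM in GV, or for H1f1. Another 35 entries had no annotated 3′ end long enough to be searched, among them H2ac1 at 41.5 FPKM in GV. A link of these elements to level was not tested. Single clustered genes are uncertain, because their near-identical copies share reads and the alignment kept uniquely mapped reads.

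**Figure D1:**
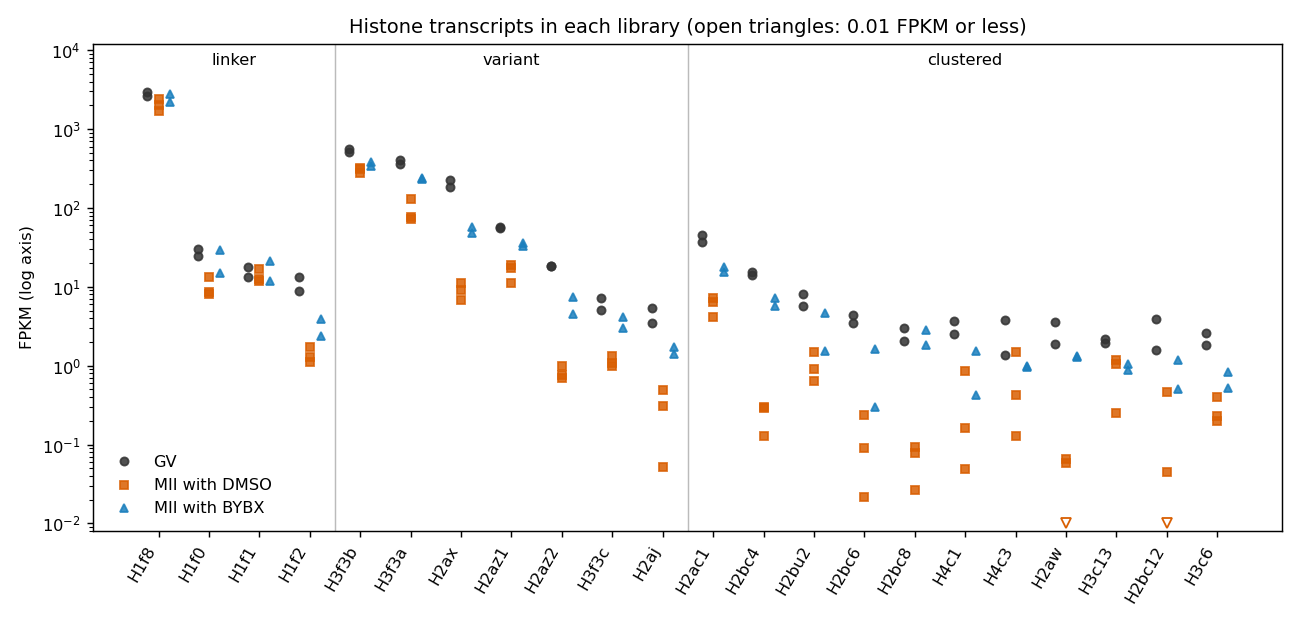
FPKM of the 22 tested histone entries in each library on a log axis, grouped into linker, variant and clustered entries and ordered within a class by mean level. Each point is 1 library of 10 oocytes. H1f8 lies at 1693 FPKM or more in all 7 libraries, while most clustered entries fall below 1 FPKM in MII oocytes with DMSO and lie between the other groups with BYBX.

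The oocyte linker histone H1f8 was the most abundant histone transcript. It measured 2964 and 2603 FPKM in the GV libraries, 1693, 2042 and 2384 FPKM in MII oocytes with DMSO, and 2818 and 2234 FPKM in MII oocytes with BYBX. All 3 DMSO libraries lay below both GV libraries, and the BYBX libraries overlapped both other groups. By mean level H1f8 ranked 6 among all entries in GV, 4 in MII with DMSO and 4 in MII with BYBX. As a share of all FPKM in a library, it was 0.605% and 0.647% in GV, 1.54%, 1.65% and 1.87% in MII with DMSO, and 1.14% and 1.11% in MII with BYBX.

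The variant transcripts followed in level. H3f3b and H3f3a, the genes that both encode H3.3, averaged 535 ± 34.3 and 386 ± 30.9 FPKM in GV (SD, n = 2). H2ax, which encodes the DNA damage variant H2A.X, averaged 206 ± 32.9 FPKM, and H2az1 and H2az2, the H2A.Z genes, 57.1 ± 1.36 and 18.5 ± 0.0527 FPKM. The libraries of neighbouring genes in this order did not overlap in GV. In MII with DMSO the order changed, since H2az1 at 15.7 ± 4.08 FPKM (SD, n = 3) stood above H2ax at 9.0 ± 2.19 FPKM, although the lowest H2az1 library and the highest H2ax library were both at 11.1 FPKM. In MII with BYBX, H2ax at 52.5 ± 6.94 FPKM (SD, n = 2) again stood above H2az1 at 34.5 ± 1.69 FPKM.

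Among clustered genes the germline histone H2ac1, or TH2A, was the highest in GV at 41.5 ± 6.14 FPKM. H2bc4, an H2B gene of the chromosome 13 cluster, followed at 14.8 ± 0.934 FPKM. The next were H2bu2 at 6.91 ± 1.78 FPKM and H2bc6 at 3.95 ± 0.652 FPKM, both H2B genes. Every other clustered entry stayed at or below 3.87 FPKM, the higher value of H2bc12, in both GV libraries.

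Summed levels differed between the classes. Linker entries summed to 2839 ± 266 FPKM in GV, 2065 ± 344 in MII with DMSO and 2569 ± 416 in MII with BYBX (SD, n = 2, 3 and 2 libraries). Variant entries summed to 1213 ± 99.6, 424 ± 55.9 and 696 ± 25.8 FPKM, and clustered entries to 108 ± 11.0, 13.5 ± 2.71 and 48.1 ± 6.10 FPKM. No class had overlapping sums in GV and MII with DMSO. From GV to MII with DMSO the linker sum was 0.727 times, the variant sum 0.350 times and the clustered sum 0.125 times its GV value, beside 0.270 times for the sum of all entries. From MII with DMSO to MII with BYBX the sums were 1.24, 1.64 and 3.57 times as high. Linker entries made up 68.1% to 68.4% of the histone sum in GV, 81.6% to 83.0% in MII with DMSO and 75.7% to 79.1% in MII with BYBX, with no overlap between groups. Since H1f8 alone carried the linker sum, the other linker entries together came to 55.4 ± 10.9, 25.5 ± 2.69 and 42.8 ± 3.13 FPKM. Relative to all FPKM of a library, the mean linker share was 0.639% in GV, 1.71% in MII with DMSO and 1.14% in MII with BYBX, whereas the clustered share was 0.0243%, 0.0111% and 0.0219%.

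**Figure D2:**
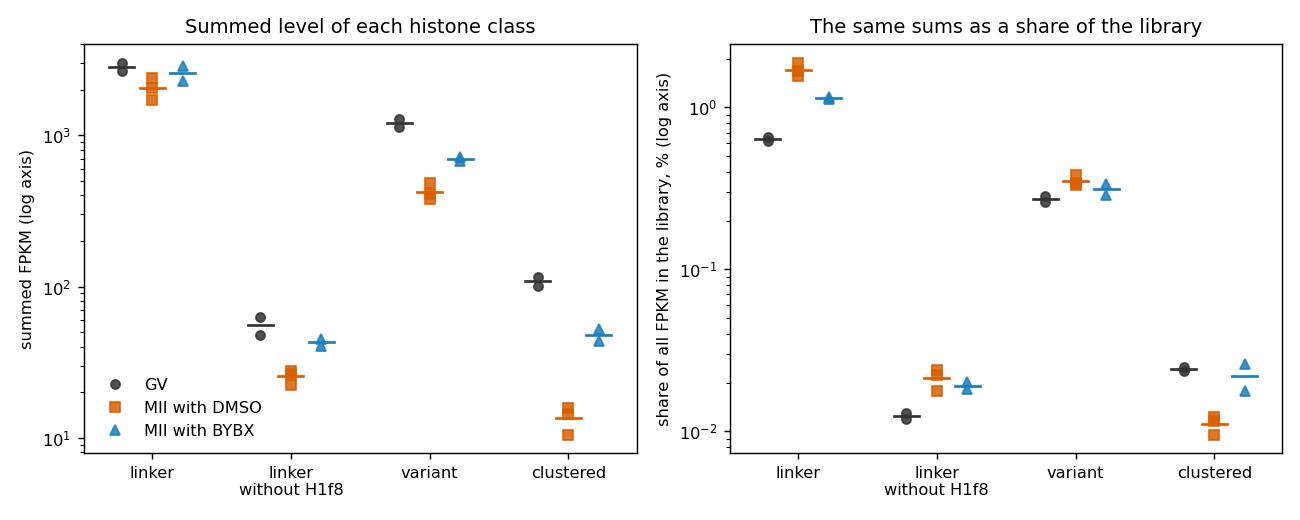
Summed FPKM of each histone class per library (left) and the same sums as a percentage of all FPKM in that library (right), both on log axes; points are libraries and lines are group means. Clustered entries show the widest gap between groups on the left, and on the right the linker entries lie highest and the clustered entries lowest in MII oocytes with DMSO.

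The comparison of MII oocytes with DMSO and GV oocytes asks which stored transcripts decline during maturation. Stage and 16 h of culture differ together here, and by the labels DMSO as well, so these cannot be told apart. The paper's methods instead state that control oocytes of both stages received DMSO. On the deposited scale 20 of the 22 tested histone entries were lower in MII with DMSO (limma on log2(FPKM + 1), Benjamini-Hochberg adjusted p under 0.05), as were 88.3% of all tested entries, so the share of histone entries, 90.9%, was near the background. None was higher, and none was higher at an unadjusted p under 0.05, beside 0.272% of all tested entries by the adjusted p. In 20 histone entries every DMSO library lay below every GV library, beside 92.5% of all tested entries, and the exceptions were H1f1 and H4c3. The 2 entries that missed the threshold were the linker histones H1f8 and H1f1. At the same total 11 entries were lower and 3 were higher, beside 49.5% and 23.3% of all tested entries, and after median centring 3 were lower and 10 were higher, beside 26.7% and 48.8%. The median log2 fold change of all tested entries was -1.83 on the deposited scale, -0.56 at the same total and 0.47 after median centring. Without a filter on level, 38 of 77 histone entries were lower, beside 65% of all entries.

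The variants H2ax and H2az2 and the clustered gene H2bc4 fell past the threshold on every scale. H2ax dropped from 229 and 183 FPKM in GV to 6.74, 9.15 and 11.1 FPKM in MII with DMSO. Its change from GV was -4.39 on the log2 scale (SE 0.27, limma adjusted p = 3.4e-09), with -2.58 at the same total and -2.08 after median centring, and only 7.54% of all tested entries had a lower value.

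H2az2 measured 18.6 and 18.5 FPKM in GV and 0.696, 0.984 and 0.773 FPKM in MII with DMSO. Its log2 fold change was -3.43 (SE 0.24, limma adjusted p = 1.1e-08), and it was -2.08 at the same total and -1.13 after median centring. H2bc4, whose GV libraries held 14.1 and 15.5 FPKM, was at 0.294, 0.127 and 0.297 FPKM in MII with DMSO. The log2 fold change of H2bc4 was -3.67 (SE 0.21, limma adjusted p = 2.0e-09), with -2.62 and -1.37 on the other scales. All GV libraries lay above all DMSO libraries for both genes.

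The paired H3.3 and H2A.Z genes differed within each pair. H3f3a measured 408 and 364 FPKM in GV and 77.2, 72.5 and 129 FPKM in MII with DMSO, a log2 fold change of -2.09 (SE 0.28, limma adjusted p = 7.7e-06). H3f3b measured 559 and 511 FPKM in GV and 280, 309 and 324 FPKM in MII with DMSO, a log2 fold change of -0.81 (SE 0.23, limma adjusted p = 0.0042). Both were lower on the deposited scale, but H3f3b was higher at the same total (1.07) and both were positive after median centring (0.21 for H3f3a and 1.49 for H3f3b). H2az1 measured 56.1 and 58.1 FPKM in GV and 11.1, 17.2 and 18.9 FPKM in MII with DMSO, a log2 fold change of -1.83 (SE 0.27, limma adjusted p = 2.0e-05) that was -0.01 at the same total and 0.48 after median centring.

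Ratios of 2 transcripts within a library do not depend on its scale, and they were chosen after the values were seen, so they are given as a description. H3f3a stood to H3f3b as 0.730 and 0.714 in GV, as 0.275, 0.235 and 0.398 in MII with DMSO, and as 0.603 and 0.704 in MII with BYBX. H2az2 stood to H2az1 as 0.331 and 0.319 in GV, 0.0625, 0.0571 and 0.0410 in MII with DMSO, and 0.211 and 0.137 in MII with BYBX. H2ax stood to H2az1 as 4.08 and 3.14, then 0.606, 0.531 and 0.589, then 1.33 and 1.72. In these 3 ratios the groups did not overlap and the BYBX libraries lay between the other groups. The other ratios computed did not show this order. H1f1 to H1f8 and H2bc1 to H2ac1 overlapped between all groups. H1f2 to H1f0 with BYBX, at 0.0805 and 0.256, spanned the DMSO values, and H1f0 to H1f8 with BYBX overlapped GV. H2ac6 to H2bc4 with BYBX lay above GV and overlapped DMSO.

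**Figure D3:**
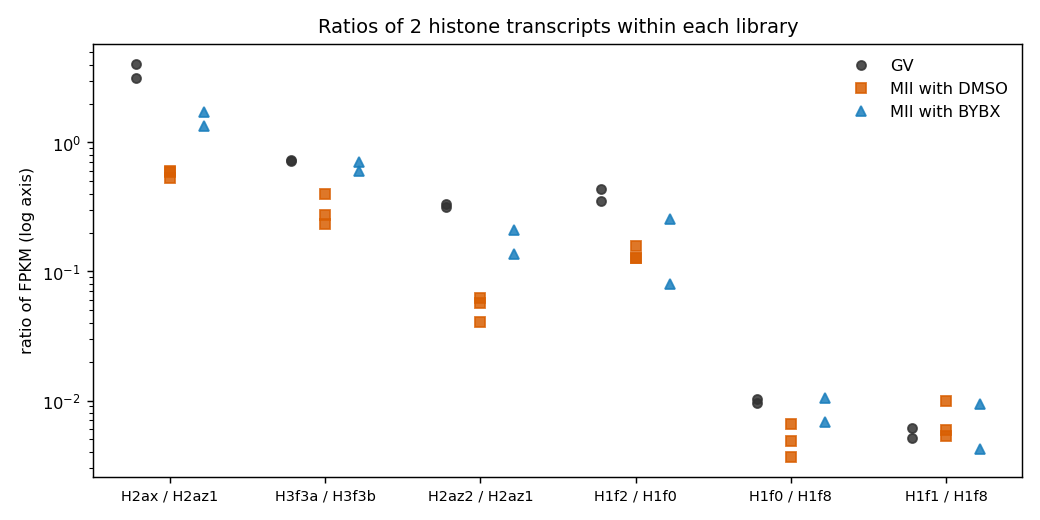
Ratios of the FPKM of 2 histone transcripts within each library, on a log axis, in GV oocytes and in MII oocytes with DMSO or BYBX. For H2ax to H2az1, H3f3a to H3f3b and H2az2 to H2az1 the DMSO libraries lie lowest and the BYBX libraries between the groups. For H1f1 to H1f8 all groups overlap. The BYBX libraries overlap DMSO for H1f2 to H1f0 and overlap GV for H1f0 to H1f8.

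The linker histones did not move alike. H1f2, a somatic H1 of the chromosome 13 cluster, measured 13.4 and 8.77 FPKM in GV and 1.28, 1.71 and 1.10 FPKM in MII with DMSO, a log2 fold change of -2.33 (SE 0.25, limma adjusted p = 9.4e-07). It stayed negative at the same total (-0.90) and after median centring (-0.03). H1f0, a replacement linker histone of non-dividing cells, measured 30.5 and 24.9 FPKM in GV and 8.21, 13.4 and 8.68 FPKM in MII with DMSO. Its log2 fold change was -1.39 (SE 0.31, limma adjusted p = 8.0e-04), which turned to 0.38 at the same total and 0.91 after median centring.

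H1f1 measured 18.1 and 13.3 FPKM in GV and 16.9, 12.02 and 12.6 FPKM in MII with DMSO, with overlapping groups. Its log2 fold change was -0.17 (SE 0.29, limma adjusted p = 0.58), and 96.5% of all tested entries had a lower value. For H1f8 the log2 fold change was -0.46 (SE 0.22, limma adjusted p = 0.067), and 91.1% of all tested entries had a lower value. Both were positive at the same total, at 1.60 for H1f1 and 1.43 for H1f8, and past the threshold there (limma adjusted p = 0.0014 and 2.6e-05). On the deposited scale H1f8 passed the threshold without the third DMSO library, at -0.58 (limma adjusted p = 0.047).

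The remaining variants were also lower on the deposited scale. H2aj, an H2A gene outside the clusters, measured 5.39 and 3.44 FPKM in GV and 0.306, 0.0513 and 0.487 FPKM in MII with DMSO, with a log2 fold change of -2.07. H3f3c, annotated as a processed pseudogene of the H3.3 type and so uncertain in its reads, had a log2 fold change of -1.74. At the same total they were -1.14 (limma adjusted p = 0.0019) and -0.40 (limma adjusted p = 0.14). Both turned positive after median centring, to 0.23 and 0.56. H2aj was at most 0.487 FPKM with DMSO, where the added 1 FPKM compresses its fall.

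All 11 tested clustered entries were lower on the deposited scale, beside the 88.3% of all tested entries, with a median log2 fold change of -1.71. The medians were -0.93 for linker and -2.07 for variant entries. For H2bc6, H4c1, H4c3, H3c13, H2bc12 and H3c6 the fall was largely fixed by the level filter, which they passed through GV alone. H2ac1 measured 45.8 and 37.2 FPKM in GV and 4.18, 6.43 and 7.20 FPKM in MII with DMSO. This was a log2 fold change of -2.63 (SE 0.27, limma adjusted p = 4.5e-07), and it was -0.89 at the same total and -0.33 after median centring. H2bu2 (-1.98), H2bc6 (-2.15), H2bc8 (-1.71), H2aw (-1.81), H4c1 (-1.62) and H4c3 (-1.09) were lower too. Each stayed negative at the same total, from -1.37 for H2bc6 to -0.14 for H4c3, past the threshold for H2bc6, H2bc8 and H2aw. Each turned positive after median centring. Their DMSO means were still 0.0150 (H2aw) to 0.264 (H4c3) times their GV means, beside 0.270 times for the sum of all entries. Median centring compares an entry with the median entry and not with this sum. The added 1 FPKM also compresses changes at such low values, so a positive sign need not mean a smaller fall in FPKM. Which of these applies to an entry was not tested. For H2bc6, H4c1 and H4c3 the low ratios were themselves largely fixed by the level filter. H4c3 overlapped between groups, and without the first GV library its log2 fold change was -0.57 (limma adjusted p = 0.21). The other 3, H2bc12, H3c6 and H3c13, had log2 fold changes from -1.62 to -0.78.

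**Figure D4:**
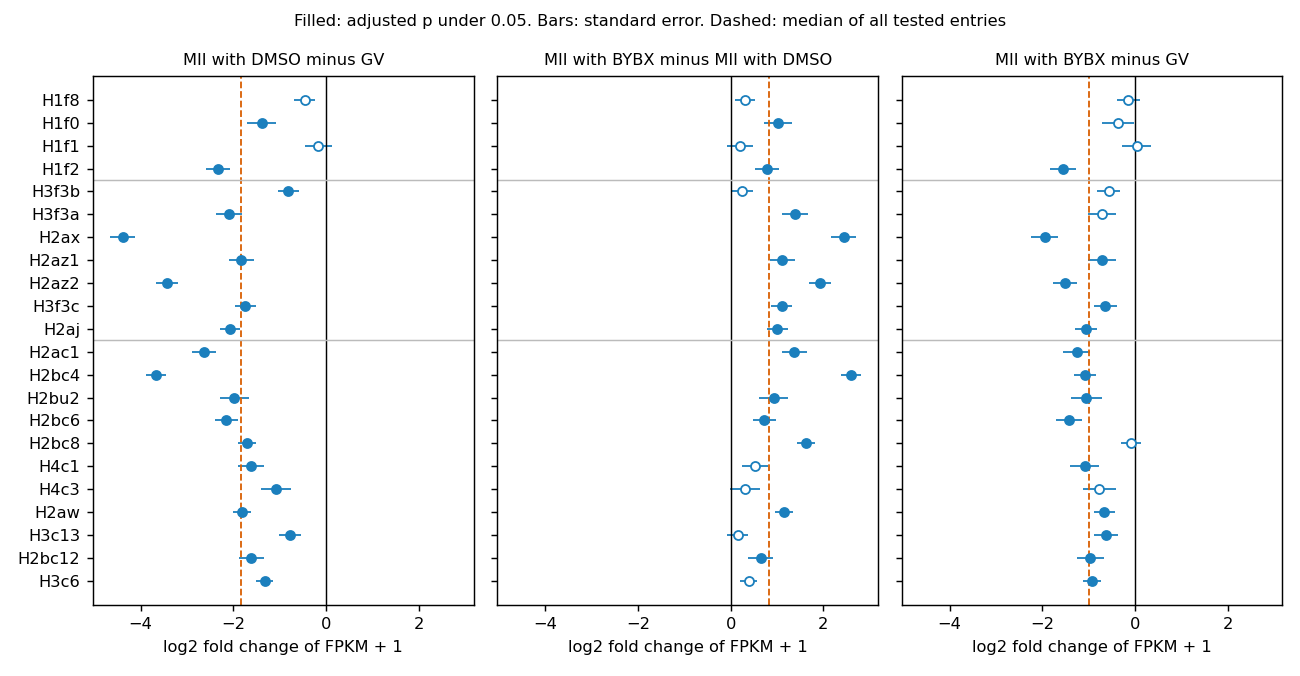
Log2 fold changes of FPKM + 1 with standard errors for the 22 tested histone entries in 3 comparisons on the deposited scale; filled points have a limma adjusted p under 0.05 and the dashed line is the median of all tested entries (-1.83, 0.84 and -0.99). H2ax, H2az2 and H2bc4 lie left of the line in the first comparison and right of it in the second, and H1f8, H1f1 and H3f3b lie on the side nearer to 0 in both, with directions that change on the other scales.

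The comparison of BYBX with DMSO asks how a ligand that stabilises RNA G-quadruplexes alters the transcript levels of MII oocytes. On the deposited scale 15 of the 22 tested histone entries were higher with BYBX (limma adjusted p under 0.05), a share of 68.2% beside 65.2% of all tested entries, so the share was again near the background. None was lower, also at an unadjusted p under 0.05, beside 0.0326% of all tested entries by the adjusted p. In 17 entries every BYBX library lay above every DMSO library, beside 79% of all tested entries. The entries that rose were 2 linker, 6 variant and 7 clustered ones. At the same total 6 were higher and 2 lower, beside 39.9% and 8.22% of all tested entries, and after median centring 3 were higher and 6 lower, beside 18.4% and 43.9%. The median log2 fold change was 0.55 for linker, 1.12 for variant and 0.73 for clustered entries, and 0.84 for all tested entries. The last value was 0.34 at the same total and -0.44 after median centring.

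H2ax, H2az2 and H2bc4 rose with BYBX on every scale, and in each of them both BYBX libraries lay above all DMSO libraries. The BYBX libraries held 47.6 and 57.4 FPKM of H2ax, about 5.83 times the DMSO mean, and its log2 fold change was 2.44 (SE 0.27, limma adjusted p = 4.2e-06). For H2az2 they held 7.52 and 4.56 FPKM, a log2 fold change of 1.92 (SE 0.24, limma adjusted p = 1.2e-05). For H2bc4 they held 5.74 and 7.25 FPKM, a log2 fold change of 2.59 (SE 0.21, limma adjusted p = 3.1e-07). These are the same members that fell on every scale in the comparison with GV, but both comparisons share the DMSO libraries. At the same total the log2 fold changes with BYBX were 1.62, 1.48 and 2.44, and after median centring 1.16, 0.65 and 1.31.

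H3f3a held 233 and 238 FPKM with BYBX, above all 3 DMSO libraries, and its log2 fold change was 1.38 (SE 0.28, limma adjusted p = 7.2e-04). It was positive on the other scales, at 0.50 and 0.10, and past the threshold on neither. H3f3b held 386 and 338 FPKM, also above the DMSO libraries, with a log2 fold change of 0.25 (SE 0.23, limma adjusted p = 0.34). H3f3b turned to -0.64 at the same total (limma adjusted p = 0.0072) and to -1.03 after median centring. The difference between these 2 genes was not tested beyond the ratios above.

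H2az1 held 35.7 and 33.3 FPKM in the BYBX libraries, and its log2 fold change of 1.12 (SE 0.27, limma adjusted p = 0.0026) turned to -0.16 after median centring. H2ac1 held 15.4 and 18.0 FPKM, a log2 fold change of 1.38 (SE 0.27, limma adjusted p = 5.1e-04) that stayed positive on the other scales, at 0.59 and 0.10. H2bc8 held 1.85 and 2.80 FPKM beside at most 0.0943 FPKM in the DMSO libraries, a log2 fold change of 1.63 (SE 0.20, limma adjusted p = 9.0e-06). It was the only tested clustered member whose BYBX libraries overlapped the GV libraries, at 2.98 and 2.06 FPKM. H2aw held 1.29 and 1.34 FPKM beside 0.0579, 0.0660 and 0 FPKM with DMSO. Its log2 fold change was 1.15, with 1.17 at the same total (limma adjusted p = 4.2e-04) and -0.12 after median centring. The last value reflects the added 1 FPKM, since the BYBX mean of H2aw was 31.8 times its DMSO mean.

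Among linker histones, H1f8 had a log2 fold change of 0.31 (SE 0.22, limma adjusted p = 0.23) and H1f1 of 0.20 (SE 0.29, limma adjusted p = 0.54) on the deposited scale. Relative to the other transcripts H1f8 was lower, at -0.58 with the same total (limma adjusted p = 0.012) and -0.97 after median centring (limma adjusted p = 0.0014). H1f0 differed between the BYBX libraries, which held 29.2 and 15.2 FPKM. Its log2 fold change of 1.02 (SE 0.31, limma adjusted p = 0.011) was 0.57 without the first BYBX library (limma adjusted p = 0.18) and -0.25 after median centring. H1f2 held 2.35 and 3.88 FPKM, a log2 fold change of 0.78 (SE 0.25, limma adjusted p = 0.015) that was 0.51 without the second BYBX library (limma adjusted p = 0.15), 0.70 with the replicate number as a block (limma adjusted p = 0.076) and -0.49 after median centring.

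Against GV, the MII oocytes with BYBX were lower in 15 of the 22 tested histone entries on the deposited scale (68.2%, beside 69.2% of all tested entries; limma adjusted p under 0.05). None was higher at an adjusted or an unadjusted p under 0.05, beside 0.315% of all tested entries. The 15 entries were 1 linker, 5 variant and 9 clustered ones, and the count was 9 of 24 without the first GV library, beside 51.7% of all entries, and 9 of 22 with a pseudocount of 0.1 FPKM, beside 63.3%. Among the clustered ones were H2bc6, H4c1, H3c13, H2bc12 and H3c6, which passed the level filter through GV alone. Their fall from GV was largely fixed in advance. Only H2ax was lower past the threshold on every scale, with log2 fold changes of -1.95 (SE 0.30, limma adjusted p = 1.2e-04), -0.96 and -0.92. At the same total H1f8 was the 1 entry that was higher (0.85, limma adjusted p = 0.023), beside 5.3% of all tested entries. The class medians were -0.26 for linker, -0.71 for variant and -0.96 for clustered entries. The clustered median includes those entries and H4c3, which also passed the filter through GV alone. The median of all tested entries was -0.99, which became -0.17 at the same total and 0.04 after median centring.

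H1f2 (-1.55), H2az2 (-1.51), H2bc6 (-1.42), H2ac1 (-1.26) and H2bc4 (-1.08) were lower than in GV on the deposited scale. For H2bc6 this fall was largely fixed by the level filter. The values of all these entries on the other scales were negative, from -0.70 to -0.06, and none passed the threshold there. H1f8, H1f0 and H1f1 overlapped with GV, at log2 fold changes of -0.15, -0.37 and 0.03. H3f3a (-0.71, limma adjusted p = 0.053) and H3f3b (-0.56, limma adjusted p = 0.058) missed the threshold although both BYBX libraries lay below both GV libraries, and both were positive on the other scales. Histone entries whose BYBX libraries all lay below the GV libraries numbered 18 of 22, beside 82.3% of all tested entries.

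The factors that process and degrade histone mRNA were described from a list of 14 genes, of which 13 were tested. On the deposited scale 11 were lower and 0 higher in MII with DMSO than in GV, BYBX raised 7 and lowered 0 of them against DMSO, and MII oocytes with BYBX had 6 lower and 0 higher against GV (limma adjusted p under 0.05). These shares of the list, 84.6%, 53.8% and 46.2%, stood beside 88.3%, 65.2% and 69.2% of all tested entries. The directions depended on the scale. At the same total 3 were lower and 5 higher in MII with DMSO than in GV, beside 49.5% and 23.3% of all tested entries. Slbp, the stem-loop binding protein that guides these mRNAs from processing to translation, measured 1052 and 994 FPKM in GV, 603, 663 and 662 FPKM in MII with DMSO, and 845 and 727 FPKM in MII with BYBX. Its log2 fold change from GV to MII with DMSO was -0.67 (SE 0.22, limma adjusted p = 0.010), but 1.21 at the same total. Lsm10, a subunit of the U7 particle that cuts histone pre-mRNA, measured 262 and 264 FPKM in GV, 2.71, 3.46 and 3.41 FPKM in MII with DMSO, and 84.7 and 61.2 FPKM in MII with BYBX. Lsm10 had a log2 fold change of -5.98 from GV to MII with DMSO (SE 0.25, limma adjusted p = 2.9e-10) and of 4.13 with BYBX (SE 0.25, limma adjusted p = 4.4e-08), in the same direction on every scale. Upf1, a helicase of mRNA decay, overlapped between all groups, with a log2 fold change of 0.36 from GV to MII with DMSO that was 2.16 at the same total.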

How the data were processed

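Smart-seq2 libraries of GV oocytes (n = 2), MII oocytes with DMSO (n = 3) and MII oocytes with BYBX (n = 2) were analysed. The authors trimmed reads with Trim Galore 0.6.7, aligned them to mm10 with HISAT2 2.2.1, kept unique alignments, computed FPKM with Cufflinks 2.2.1, and scaled the deposited FPKM values by ERCC spike-in RNA and, across batches, by their GV samples. The factors and batches are not given in the sources used here, so batch and group cannot be told apart, and without counts the depth and its error are unknown.

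Tables listed the same gene symbols in the same order and were joined row by row, and 4 entries with a missing value, none a histone, were left out. limma 3.58.1 (R 4.3.3, empirical Bayes with an intensity trend) was fitted to log2(FPKM + 1) of 9202 entries that averaged at least 1 FPKM over the group means, with all 7 libraries in one model with 4 residual degrees of freedom. Fold changes on this scale understate changes of low entries. Older class symbols were matched to current ones through RefSeq synonyms. Named entries were every tested linker and variant member and the 8 highest clustered members, and others were named after their values were seen. The members and lists were chosen with earlier results of these data known. The alternatives tried were 2 rescalings (same total FPKM, median centring), a smaller pseudocount (0.1), a stricter filter (5 FPKM) or none, 2-group fits, the replicate number as a block, a fit with no trend, a 2-fold minimum and the omission of each library in turn.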

Additional observations from a re-analysis of the deposited data

How the results depend on the processing

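Many directions depended on how the libraries were scaled, and more so with median centring than at the same total. Of the 57 log2 fold changes of named histone entries, rescaling to the same total FPKM turned the direction of 15, and setting the library medians equal turned 36. Medians were set equal after 1 FPKM was added, so a low entry can turn direction although its FPKM changed more than the library totals. At the same total, MII with DMSO minus GV became H1f0 0.38, H1f1 1.60, H1f8 1.43 and H3f3b 1.07. BYBX minus DMSO became H1f1 -0.64, H1f8 -0.58, H3f3b -0.64 and H4c3 -0.016, and BYBX minus GV became H1f0 0.58, H1f8 0.85, H2az1 0.26, H3f3a 0.28, H3f3b 0.43, H3f3c 0.17 and H2bc8 0.58. After median centring, MII with DMSO minus GV became H1f0 0.91, H1f1 2.13, H1f8 1.84, H2aj 0.23, H2az1 0.48, H3f3a 0.21, H3f3b 1.49, H3f3c 0.56, H2bu2 0.32, H2bc6 0.15, H2bc8 0.59, H4c1 0.68, H4c3 1.22 and H2aw 0.49. BYBX minus DMSO became H1f0 -0.25, H1f1 -1.07, H1f2 -0.49, H1f8 -0.97, H2aj -0.27, H2az1 -0.16, H3f3b -1.03, H3f3c -0.18, H2bu2 -0.34, H2bc6 -0.55, H4c1 -0.74, H4c3 -0.96 and H2aw -0.12, and BYBX minus GV became H1f0 0.66, H1f8 0.88, H2az1 0.31, H3f3a 0.32, H3f3b 0.46, H3f3c 0.39, H2bc8 0.94, H4c3 0.25 and H2aw 0.36.

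For MII with DMSO against GV, the 20 lower histone entries became 9 of 11 with a filter at 5 FPKM, 38 of 77 without a filter, 11 at the same total and 3 after median centring, beside 87.9%, 65%, 49.5% and 26.7% of all entries. The 0 higher ones became 3 and 10 on these 2 scales (23.3% and 48.8% of all entries). For BYBX against DMSO, the 15 higher entries became 8 of 11 with the 5 FPKM filter, 6 at the same total and 3 after centring. All entries stood at 66.9%, 39.9% and 18.4%. The 0 lower ones became 2 and 6 (8.22% and 43.9%). For BYBX against GV, the 15 lower entries became 9 with a pseudocount of 0.1 FPKM and 7 of 11 with the 5 FPKM filter. They became 1 on each other scale and 9 with a minimum of 2-fold. All entries stood at 63.3%, 68.6%, 13.3%, 13.6% and 49.2%. The 0 higher ones became 1 and 3 (5.3% and 15.2%). Summed FPKM at the same total was 1552 in GV and 4156 in MII with DMSO for linker entries, 664, 856 and 760 in GV, DMSO and BYBX for variant entries, and 59.0 in GV and 27.1 with DMSO for clustered entries. Over tested entries alone the clustered sums were 85.1, 9.72 and 35.4 FPKM.

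Of the histone mRNA processing and decay genes, 11 were lower for MII with DMSO against GV. This became 6 of 8 with the 5 FPKM filter, 3 at the same total, 2 after centring and 7 with a minimum of 2-fold. All entries stood at 87.9%, 49.5%, 26.7% and 74.9%. The 0 higher became 5 and 8 on the rescaled data, beside 23.3% and 48.8%. For BYBX against DMSO the 7 higher became 4 of 8 with the filter, 2 at the same total, 1 after centring and 4 at 2-fold. These counts stood beside 66.9%, 39.9%, 18.4% and 42.1% of all entries. The 0 lower became 3 and 7, beside 8.22% and 43.9%. For BYBX against GV the 6 lower became 1 on each other scale and 3 at 2-fold, beside 13.3%, 13.6% and 49.2%. The 0 higher became 2 and 5, beside 5.3% and 15.2%.

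Leaving out each DMSO library in turn gave 20 to 21 lower entries for MII with DMSO against GV, beside 85.4% to 86.4% of all tested entries. For BYBX against DMSO it gave 13 to 15 higher entries, beside 58.4% to 60.6%. For BYBX against GV it gave 14 to 17 lower entries, beside 67.1% to 69.3%. The processing and decay genes that were lower for BYBX against GV numbered 6 in each of these fits. Omission of a GV or BYBX library left a single library in that group. Over the omission of every library in turn, some log2 fold changes crossed 0. For H1f1 they ran from -0.38 to 0.038 in MII with DMSO minus GV and from -0.18 to 0.59 in BYBX minus DMSO. In BYBX minus GV they ran from -0.82 to 0.083 for H1f0, from -0.35 to 0.42 for H1f1, from -0.31 to 0.021 for H1f8 and from -0.29 to 0.12 for H2bc8, and none of these passed the threshold. The causes were not tested.

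The replicate number as a block gave 20 lower entries for MII with DMSO against GV, beside 84.5% of all tested entries. It gave 13 higher entries for BYBX against DMSO, beside 57.2%, and 12 lower entries for BYBX against GV, beside 64.8%. With this block 3 of 57 named calls were lost. Nothing in the labels says that a number marks a shared day or animal, and deviations of same-numbered libraries correlated at 0.487 and 0.282 between DMSO and GV, at -0.601 and -0.348 between BYBX and DMSO, and at -0.330 between BYBX and GV. With the numbers of BYBX and GV crossed, a choice made after seeing the data, 14 entries were lower, beside 63.6% of all tested entries. Depth could not be weighed, since the tables hold no counts.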

Other observations

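Some histone entries below the level needed for testing are given as values, chosen after their values were seen. Of the 55 entries above 0 and below that level, 9 had a higher mean in MII with DMSO than in GV. H4c4, a clustered H4 gene whose 3′ end carries a stem-loop, was listed at 0 in both GV libraries and at 0.410, 0.585 and 1.47 FPKM in MII with DMSO and 0.175 and 1.28 FPKM in MII with BYBX. In the fit without a filter on level, its log2 fold change from GV to MII with DMSO was 0.82 (SE 0.34, limma adjusted p = 0.080). H1f10, a replacement linker histone, was at 0.434 FPKM in both GV libraries, at most 0.0201 FPKM in MII with DMSO, and at 1.30 and 0.0534 FPKM in the BYBX libraries. H2bc1, or TH2B, the H2B partner of TH2A, was far below H2ac1 in GV, at 2.04 and 1.61 FPKM. H2bc11 was at 1.12 and 2.76 FPKM in GV, listed at 0 in all 3 DMSO libraries and at 0.315 and 1.14 FPKM with BYBX.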
